A study of Homo sapiens with 4 samples.

Results

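A set of 10 genes that encode subunits of the BAF chromatin remodelling complexes were examined for occupancy by one of those subunits, DPF2, and for crotonylation of lysine 14 on histone H3 (H3K14cr). They were SMARCD2, ARID1A, SMARCA4, SMARCB1, SMARCC1, SMARCE1, SMARCD1, ACTL6A, DPF2 and BRD9, 10 of 29 subunit genes considered. Each gene was represented by the 1 kb tiles whose midpoint lay within 6 kb of its start site, 12 tiles a gene and 120 in all, of which 119 were among the 2598309 tiles of the genome with a read. The genes were chosen by their role in the complex and selected on earlier values of these same libraries: the DPF2 and H3K14cr levels near the start site and their ratio. Those values are therefore given as a description: calls of enriched tiles only mark where signal lay, and nothing is inferred from how many of these genes were called. The other 19 subunit genes were not located on hg19 and have no ChIP-seq values here.

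The data are 4 chromatin immunoprecipitation and sequencing (ChIP-seq) libraries from wild-type K562, an established human leukaemia line with erythroid features. DPF2 was precipitated for 2 of them and H3K14cr for the other 2. No treatment, and no genotype other than wild type, is labelled for any of them, and no input library was analysed here. The libraries held 7787444 to 17369133 reads. Paired libraries of the same antibody differed over all 1 kb tiles by less than sampling noise, with chi-square per degree of freedom of 0.981 (DPF2) and 0.990 (H3K14cr), and the same held over the 120 tiles of these genes (0.947 and 0.976). In the 24 tiles of SMARCD2 and ARID1A the value was 1.465 for the DPF2 pair, and in the 312 tiles of the genome with 150 reads or more it was 3.17, so at strong sites the DPF2 libraries differed by more than counting error. Since the libraries agree within sampling noise over the genome, each antibody was counted as 1 sample, n = 1 for DPF2 and n = 1 for H3K14cr, and the values of its libraries are shown side by side. Levels are reads per 1000000 reads of the library (CPM). Differences between antibodies have no replicate check, and all intervals are 95% exact binomial intervals that cover counting error only.

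BAF complexes slide and evict nucleosomes with the energy of ATP, hydrolysed by SMARCA4 or its paralog. Around that ATPase sit core subunits shared by most forms of the complex, such as SMARCC1, SMARCB1, SMARCE1, SMARCD proteins and the actin-related ACTL6A, while ARID1A and DPF2 mark the canonical form and BRD9 a non-canonical form. DPF2 carries paired PHD fingers that bind acylated lysine 14 of histone H3, crotonylation included. The question put to the data was whether DPF2 occupies the genes of its own complex.

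DPF2 signal fell into 2 classes among the 10 genes. SMARCD2 and ARID1A carried narrow DPF2 sites many times above their surroundings. The other 8 genes carried a low rise of DPF2 near the start site under a similar or higher rise of H3K14cr. At least 1 tile was enriched for DPF2 in 6 of the 10 genes: SMARCD2, ARID1A, SMARCA4, SMARCC1, SMARCE1 and ACTL6A. Enriched means at least 3-fold over its background, which was the chromosome mean or the average of the flanking 20 kb, whichever was higher, at an adjusted Poisson p of at most 0.001 in both libraries. Of all windows of 12 tiles in the genome 2.48% held such a tile, and of windows centred on an H3K14cr-enriched tile 53.1% did. An H3K14cr-enriched tile was present in 9 of the 10 genes, all but ARID1A, against 4.22% of all windows. ARID1A still had the highest pooled H3K14cr window level of the 10 genes, 32.6 CPM. Of the 120 tiles, 9 were enriched for DPF2 and 12 for H3K14cr, 5 of them for both; over all tiles the shares were 0.221% and 0.425%, and 38.8% of H3K14cr-enriched tiles were also enriched for DPF2. The highest 300 bp of pooled H3K14cr signal lay within 1000 bp of the start site in 10 of 10 genes. No share over other windows was computed for this count. Calls near the threshold moved with the rule. A fold of at least 5 left DPF2-enriched tiles in 3 genes and H3K14cr-enriched tiles in 2. The chromosome mean alone as background gave DPF2-enriched tiles in all 10 genes and H3K14cr-enriched tiles in all 10, ARID1A included. Tiles of 500 bp gave 4 genes for DPF2 and 9 for H3K14cr, and tiles of 2 kb gave 5 and 8. With the surrounding 10 kb in place of 20 kb there were 4 and 6.

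**Figure D1:**
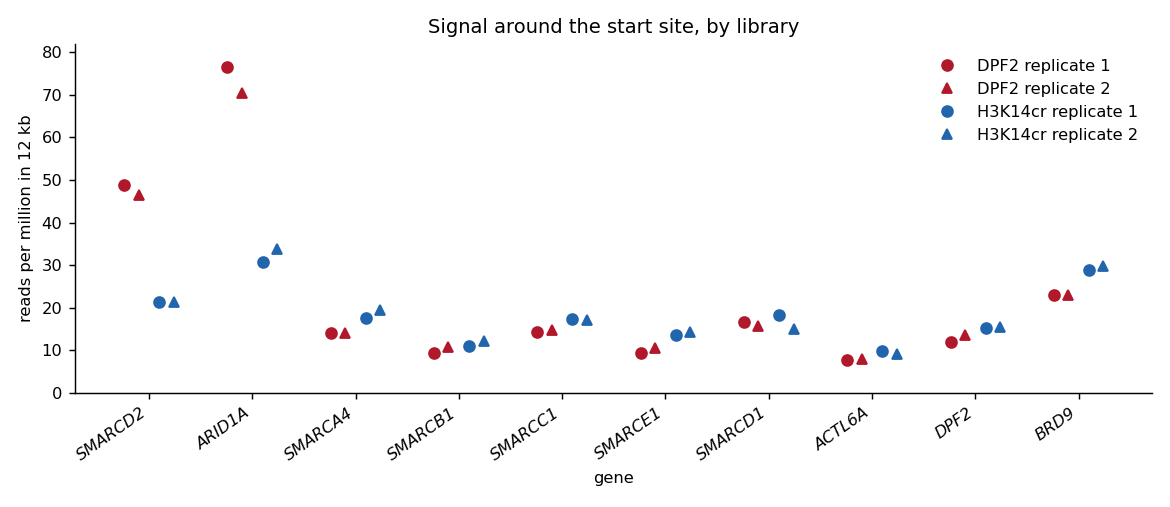
CPM in the 12 kb around each start site (vertical axis), by gene, with 1 point for each library: DPF2 left (red) and H3K14cr right (blue), circles for replicate 1 and triangles for replicate 2. SMARCD2 and ARID1A had 46.4 to 76.5 CPM in the DPF2 libraries, above the 7.58 to 22.9 CPM of the other 8 genes.

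Over the whole window, SMARCD2 had 48.9 and 46.4 CPM in the DPF2 libraries, against 21.4 and 21.3 CPM in the H3K14cr libraries. ARID1A had 76.5 and 70.5 CPM for DPF2, against 30.7 and 33.8 CPM for H3K14cr. At both genes DPF2 was higher in each of its libraries than H3K14cr in either of its own, with levels scaled to library totals. No share over other windows was computed for this comparison. In the other 8 genes the pooled level was 7.82 to 22.8 CPM for DPF2 (median 13.5) and 9.275 to 29.4 CPM for H3K14cr (median 15.75). BRD9 was highest of these 8 for both antibodies and ACTL6A lowest for both. The DPF2 to H3K14cr ratio of pooled reads was 2.22 at SMARCD2 (2.002 to 2.46) and 2.23 at ARID1A (2.055 to 2.42), so these genes did not differ in window ratio beyond counting error. In the other 8 genes it ran from 0.725 to 0.988, with a median of 0.844.

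These ratios are relative to library totals, and most H3K14cr sites have a ratio below 1 on that scale. Over 10899 windows centred on an H3K14cr-enriched tile the median ratio was 0.852, with quartiles of 0.781 and 0.934. The windows of SMARCD2 and ARID1A were each above 99.9% of them, and 0.147% of them reached a ratio of 2. Neither of the 2 is such a window: the centre tile of SMARCD2 was at 1.43-fold for H3K14cr, and ARID1A had no H3K14cr-enriched tile. The rank therefore sets them beside windows of another kind. The centre tile of BRD9 was not H3K14cr-enriched either. The other 8 genes stood at percentiles from 10.3 (SMARCE1) to 85.2 (SMARCD1) of the same windows. In DPF2 level, the windows of the 8 genes stood at percentiles from 25.9 (ACTL6A) to 98.4 (BRD9). With median-of-ratios factors in place of library totals every ratio is divided by 0.763, and the median over the 10 genes, 0.848 by library totals, becomes 1.11. With those factors SMARCD2 (2.91) and ARID1A (2.925) stayed above 1, and SMARCA4 (0.989) and SMARCE1 (0.951) stayed below it. The window ratios of the other genes went from below to above 1, so their side of 1 depends on the scaling. The place of a window among the H3K14cr windows does not.

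**Figure D2:**
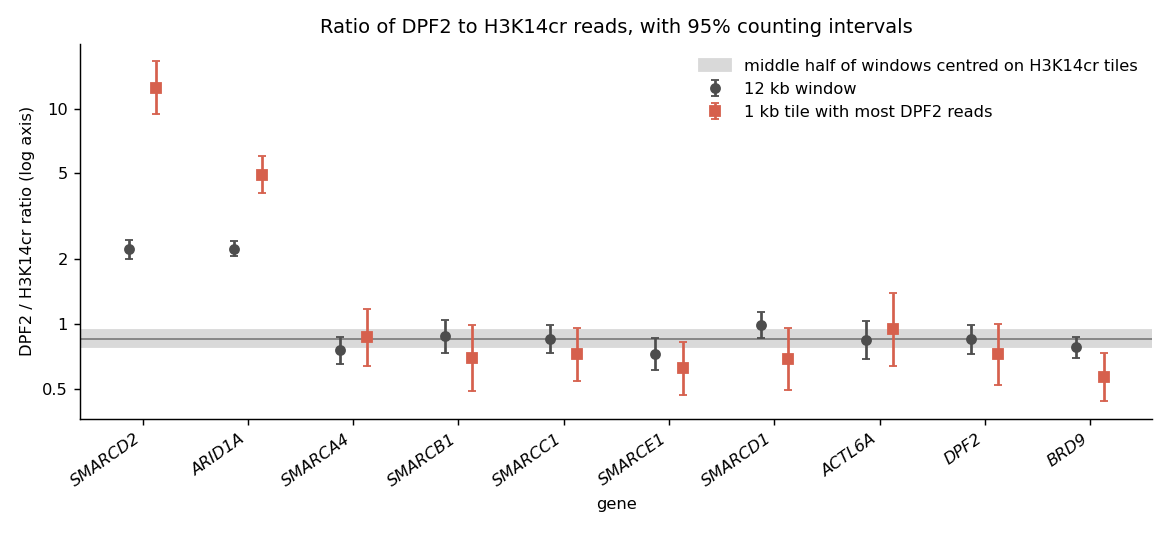
Ratio of DPF2 to H3K14cr reads (vertical axis, log scale) by gene, in the 12 kb window (dark circles) and in the 1 kb tile with most DPF2 reads (red squares), with 95% exact binomial intervals. The grey band spans the quartiles of windows centred on an H3K14cr-enriched tile, 0.781 to 0.934, and the line marks their median. SMARCD2 and ARID1A lie above the band by both measures, but their own centre tiles were not H3K14cr-enriched.

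SMARCD2 and its paralog SMARCD1 encode alternative BAF60 subunits, which link the complex to transcription factors; SMARCD2 is known for its role in granulocyte development. At SMARCD2 the DPF2 signal was a single narrow site just inside the hg19 start site that came with the gene list. The tile chr17:61920001-61921000 (hg19), which holds the start site at 61920350, had 27.6 and 22.8 CPM in the DPF2 libraries, against 1.84 and 2.07 CPM in the H3K14cr libraries. The pooled ratio was 12.4 (9.40 to 16.65), with 15.8-fold enrichment for DPF2, against 1.43-fold for H3K14cr. In DPF2 fold this tile ranked above 99.2% of the 5731 DPF2-enriched tiles of the genome, and in ratio above 99.9%. Tiles of 500 bp gave a ratio of 19.8 and tiles of 2 kb a ratio of 5.25 at the highest DPF2 tile, so the value depends on how tightly the site is framed.

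At a resolution of 300 bp the summit lay at chr17:61920001-61920300, 200 bp downstream of the start site on the minus strand, in both DPF2 libraries. It held 157 and 246 DPF2 reads, against 9 and 15 H3K14cr reads, a ratio of 22.5 (14.9 to 35.5), and the smoothed DPF2 signal was 500 bp wide at mid-height. DPF2 stood 20.2 times above its flanks, taken 500 to 1500 bp away on each side. H3K14cr was at 0.800 times its own flanks there, with 24 reads in the 300 bp, too few to show a difference firmly. Its own highest 300 bp lay upstream, at -800 bp from the start site, in both H3K14cr libraries. The next tile into the gene, chr17:61919001-61920000, was enriched for both antibodies, with 8.22 and 10.8 CPM for DPF2, against 4.78 and 4.145 CPM for H3K14cr, and a ratio of 2.245. In a running 500 bp the pooled H3K14cr maximum lay 900 bp downstream of the start site instead. The H3K14cr maxima therefore lay on different sides of the DPF2 summit, depending on the running length. Between the upstream maximum and the DPF2 summit, pooled H3K14cr in a running 300 bp fell to 0.1062 CPM, 500 bp upstream of the start site. At the DPF2 summit it was 0.8496 CPM, so a dip centred on that summit is not shown.

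**Figure D3:**
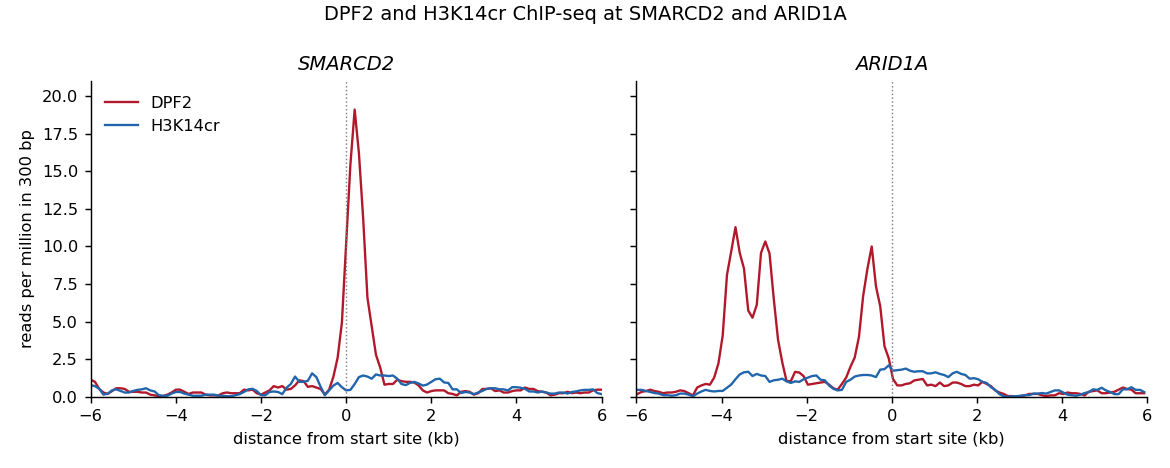
DPF2 (red) and H3K14cr (blue) CPM in a running 300 bp (vertical axis), pooled over the libraries of each antibody, against distance from the start site in kb along the gene (negative is upstream), for SMARCD2 and ARID1A on a shared scale. SMARCD2 shows 1 DPF2 summit at 200 bp and ARID1A shows 3, at -3672, -2972 and -472 bp, with H3K14cr below DPF2 at each of them.

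ARID1A encodes a large DNA-binding subunit of canonical BAF and is often mutated in cancer. At ARID1A the DPF2 signal formed 3 separate summits, all upstream of the start site at chr1:27022522. They lay at -3672, -2972 and -472 bp, each 500 bp wide at mid-height. These sites were delimited after their values were seen. The farthest, at chr1:27018701-27019000, held 92 and 146 DPF2 reads, against 10 and 23 H3K14cr reads, a ratio of 9.65 (6.69 to 14.35). At the middle summit, chr1:27019401-27019700, the counts were 82 and 136 for DPF2, against 18 and 21 for H3K14cr, and the ratio was 7.48 (5.30 to 10.8). The summit next to the start, chr1:27021901-27022200, held 78 and 133 DPF2 reads, against 17 and 23 H3K14cr reads, a ratio of 7.06 (5.02 to 10.2). All 3 intervals overlap, and no summit stood out from the others in ratio.

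In 1 kb tiles, chr1:27019001-27020000 had the most DPF2, with 23.0 and 21.9 CPM, against 4.87 and 4.32 CPM for H3K14cr, and a ratio of 4.925 (4.04 to 6.04). The tile beside it, chr1:27018001-27019000, had 17.3 and 16.3 CPM for DPF2, against 1.84 and 2.36 CPM for H3K14cr. The tile of the start site, chr1:27022001-27023000, was also enriched for DPF2, at 11.8 and 10.5 CPM, against 5.15 and 6.16 CPM for H3K14cr, with a ratio of 1.905. H3K14cr was spread over the tiles from the farthest summit into the gene, at 1.84 to 6.16 CPM a tile, without an enriched tile: at the start site its folds were 2.96 and 3.33. In the 2 kb on each side of the start site, 78.4% of DPF2 reads were upstream (74.8 to 81.8%), against 44.0% of H3K14cr reads (39.7 to 48.3%). With windows of 3 kb to each side, which leave out the tiles of both far summits, the ARID1A ratio was 1.36 in the window and 1.905 at its highest tile, and no enriched tile was then at least 2 times higher in DPF2. A tile inside that limit, chr1:27021001-27022000, had 10.3 and 9.16 CPM for DPF2, against 2.76 and 3.80 CPM for H3K14cr, a ratio of 2.82 (2.198 to 3.63). At 2.77-fold and 2.62-fold for DPF2 it was not called enriched. Its background, the flanking 20 kb, held the tiles of both far summits. The gene table of GRCh38.p14 places the non-coding LOC105376888 and LOC101928728 and the protein-coding LOC124900417 next to the start of ARID1A. The far summits were not assigned to ARID1A or to these neighbours.

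Tiles at least 2 times higher in DPF2, among enriched tiles with 20 reads or more, were found at SMARCD2 and ARID1A, 2 each, and at none of the other 8 genes. Of 12490 such tiles in the genome 2.01% passed that ratio, and of windows centred on an H3K14cr-enriched tile 1.21% held a tile that did; of all windows 0.103% did. An edgeR quasi-likelihood fit on recovered reads marked 5 tiles of these 2 genes as higher in DPF2, against 3.96% of the 12490, and 5 tiles of ACTL6A, BRD9, SMARCA4 and SMARCE1 as higher in H3K14cr, against 29.2%; with the replicate number as a block the H3K14cr side had 6 tiles, with SMARCC1 added. That fit takes the libraries of an antibody as replicates, although each antibody is counted as 1 sample here. The ratio also belongs to the choice of the genes, so nothing is read from any of these counts. In the other direction SMARCA4 had 1 tile at most 0.5 times as high in DPF2, chr19:11072001-11073000, at a ratio of 0.4805 (0.329 to 0.689); the genome share was 7.49%.

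The letters of RefSeq promoters (250 bases before the most upstream start listed for a gene, GRCh38.p14) were set beside these results for 8 of the 10 genes; SMARCC1 and ACTL6A had no entry. Both genes with strong DPF2 sites are shown, with SMARCD1 as the paralog of SMARCD2 that lacked such a site. SMARCD2 is at chr17:63842686-63842935 on the minus strand, ARID1A at chr1:26695765-26696014 on the plus strand and SMARCD1 at chr12:50085092-50085341 on the plus strand, all on GRCh38.p14. Capitals mark CCGGAA and its reverse complement, the core letters bound by ETS factors.
SMARCD2: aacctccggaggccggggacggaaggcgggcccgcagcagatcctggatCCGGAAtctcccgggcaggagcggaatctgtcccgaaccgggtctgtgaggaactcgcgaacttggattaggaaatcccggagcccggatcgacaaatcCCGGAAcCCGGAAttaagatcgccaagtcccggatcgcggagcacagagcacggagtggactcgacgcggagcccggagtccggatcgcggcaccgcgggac
ARID1A: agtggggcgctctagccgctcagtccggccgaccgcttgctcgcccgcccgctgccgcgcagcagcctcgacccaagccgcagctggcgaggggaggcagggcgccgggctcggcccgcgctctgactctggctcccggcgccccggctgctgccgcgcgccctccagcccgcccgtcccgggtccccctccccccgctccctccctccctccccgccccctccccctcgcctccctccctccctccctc
SMARCD1: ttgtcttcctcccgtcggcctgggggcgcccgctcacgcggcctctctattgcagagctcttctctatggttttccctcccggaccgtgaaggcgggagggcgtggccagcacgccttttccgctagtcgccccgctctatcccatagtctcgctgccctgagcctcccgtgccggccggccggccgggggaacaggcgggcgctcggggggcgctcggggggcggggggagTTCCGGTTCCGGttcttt
SMARCD2 held 3 matches to CCGGAA, SMARCD1 held 2 and ARID1A held 0. Across both strands, 4 of the 8 promoters held a match, against 14.8% of 27305 genes and 1 of 16 other subunit genes with an entry; 0.674% of genes held 3 or more. Of the 7 further motifs searched on both strands, the GC box GGGCGG was found in 5 of the 8 promoters, 3 times in ARID1A and 4 times in SMARCA4, against 42.2% of genes. The CCAAT box (CCAAT) was found in 3, against 33.0% of genes. The NRF1 core GCATGC was found in the DPF2 gene alone (6.46% of genes) and the AP-1 site TGANTCA in SMARCB1 alone (6.57%). The GATA site AGATAA (9.40%), the E-box CACGTG (6.46%) and the YY1 core ATGGCGG (2.82%) had 0 matches. The 8 promoters were 54.4% (SMARCE1) to 82.4% (SMARCA4) GC, against a median of 57.6% over genes (quartiles 46.0 and 67.6%). The shares of genes were not matched for GC, so they are not a like baseline for GC-rich motifs. No motif is contained in another, and matches describe letters, not binding. The files' positions are on hg19, so summits were not placed on these letters. The hg19 start sites were not matched to the starts used for the letters, and SMARCD2 has 3 promoter entries. Whether its DPF2 summit lies within the 250 bases shown was therefore not determined.

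SMARCD1 had no DPF2-enriched tile. Its window held 16.7 and 15.6 CPM for DPF2, against 18.3 and 14.9 CPM for H3K14cr. The libraries of the 2 antibodies overlapped there, and the ratio was 0.988 (0.856 to 1.14). The tile with most DPF2, chr12:50479001-50480000, had 3.47 and 2.33 CPM, against 4.14 and 3.92 CPM for H3K14cr, and was enriched for H3K14cr alone. In windows of equal length, the pooled DPF2 level was 47.3 CPM at SMARCD2 and 16.0 CPM at SMARCD1, and the pooled H3K14cr level 21.35 and 16.2 CPM.

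The gene for DPF2 itself had no DPF2-enriched tile, with 11.9 and 13.5 CPM in the window for DPF2, against 15.1 and 15.4 CPM for H3K14cr. DPF2 was lower in both libraries, and the ratio was 0.846 (0.724 to 0.987), close to the median of windows centred on H3K14cr tiles. The tile chr11:65101001-65102000, which holds the start site at 65101225, had 2.95 and 2.78 CPM for DPF2, against 4.04 and 3.86 CPM for H3K14cr. Its DPF2 folds were 3.65 and 2.835, so it passed the fold in 1 library only, while H3K14cr was enriched there. H3K14cr lay mostly inside this gene: 20.3% of its reads within 2 kb were upstream (14.9 to 26.6%), and for DPF2 33.8% (25.8 to 42.7%). Further into the gene, at 4275 bp, the tile chr11:65105001-65106000 had 1.16 and 1.58 CPM for DPF2, against 2.21 and 1.73 CPM for H3K14cr, without enrichment.

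BRD9 encodes the bromodomain subunit of non-canonical BAF, and the gene table places TRIP13 head to head with it, so signal at this start cannot be told apart between the pair. The window held 22.9 and 22.8 CPM for DPF2, against 28.8 and 29.8 CPM for H3K14cr, with a ratio of 0.776 (0.6925 to 0.870). BRD9 had the highest levels of the 8 genes but no DPF2-enriched tile. At chr5:892001-893000, which holds the start site at 892939, DPF2 had 4.24 and 3.98 CPM, against 7.996 and 6.68 CPM for H3K14cr. The DPF2 folds of that tile were 3.01 and 2.93, just at the threshold of 3-fold. The last upstream tile held no read in any library.

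Among the core subunits, SMARCA4, the ATPase, had 109 and 188 DPF2 reads in its window, a pooled 14.1 CPM, against 190 and 337 H3K14cr reads, a pooled 18.7 CPM. The tile chr19:11071001-11072000, which holds its start site at 11071598, was enriched for both antibodies, with 3.08 and 3.83 CPM for DPF2, against 3.95 and 4.20 CPM for H3K14cr. H3K14cr reached further into the gene than DPF2: the following tile had 2.44 and 1.73 CPM for DPF2, against 3.40 and 4.61 CPM for H3K14cr, and was enriched for H3K14cr alone.

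SMARCC1, a scaffold subunit, had 14.3 and 14.6 CPM for DPF2, against 17.2 and 17.0 CPM for H3K14cr. Its tile with most DPF2, chr3:47823001-47824000, spans the start site and was enriched for both antibodies, with 3.98 and 3.75 CPM for DPF2, against 4.78 and 5.64 CPM for H3K14cr. SMARCE1, which carries an HMG domain, had 9.37 and 10.6 CPM for DPF2, against 13.4 and 14.3 CPM for H3K14cr, and the lowest window ratio of the 10 genes, 0.725 (0.611 to 0.859).

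SMARCE1 also had the highest DPF2 and H3K14cr folds of these 8 genes at its start, in chr17:38804001-38805000: 6.49-fold for DPF2, which was 3.85 and 3.45 CPM, and 9.515-fold for H3K14cr, which was 5.61 and 5.87 CPM. Its signal lay upstream for both antibodies, 71.9% of DPF2 reads within 2 kb (63.5 to 79.3%) and 65.2% of H3K14cr reads (59.6 to 70.6%). ACTL6A, the actin-related subunit, had the lowest levels, 7.58 and 7.96 CPM for DPF2, against 9.74 and 8.98 CPM for H3K14cr. Its tile chr3:179281001-179282000 was nevertheless enriched for both antibodies, at 5.51-fold for DPF2 against 5.65-fold for H3K14cr, over a low surrounding level.

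SMARCB1, the core subunit lost in rhabdoid tumours, had 9.37 and 10.7 CPM for DPF2, against 10.9 and 12.1 CPM for H3K14cr. Its start-site tile, chr22:24129001-24130000, had 2.44 and 2.48 CPM for DPF2, against 3.68 and 3.45 CPM for H3K14cr. The DPF2 folds there were 3.53 and 3.62, but with 19 and 33 reads the tile did not pass the Poisson threshold, and the depth does not show whether DPF2 is enriched. Without a p-value, at 3-fold alone, 7 of the 10 genes had a DPF2-enriched tile. The read level in the 1 Mb around SMARCB1 was 1.23 times the genome median for DPF2 and 1.39 times for H3K14cr, below most of the other genes.

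**Figure D4:**
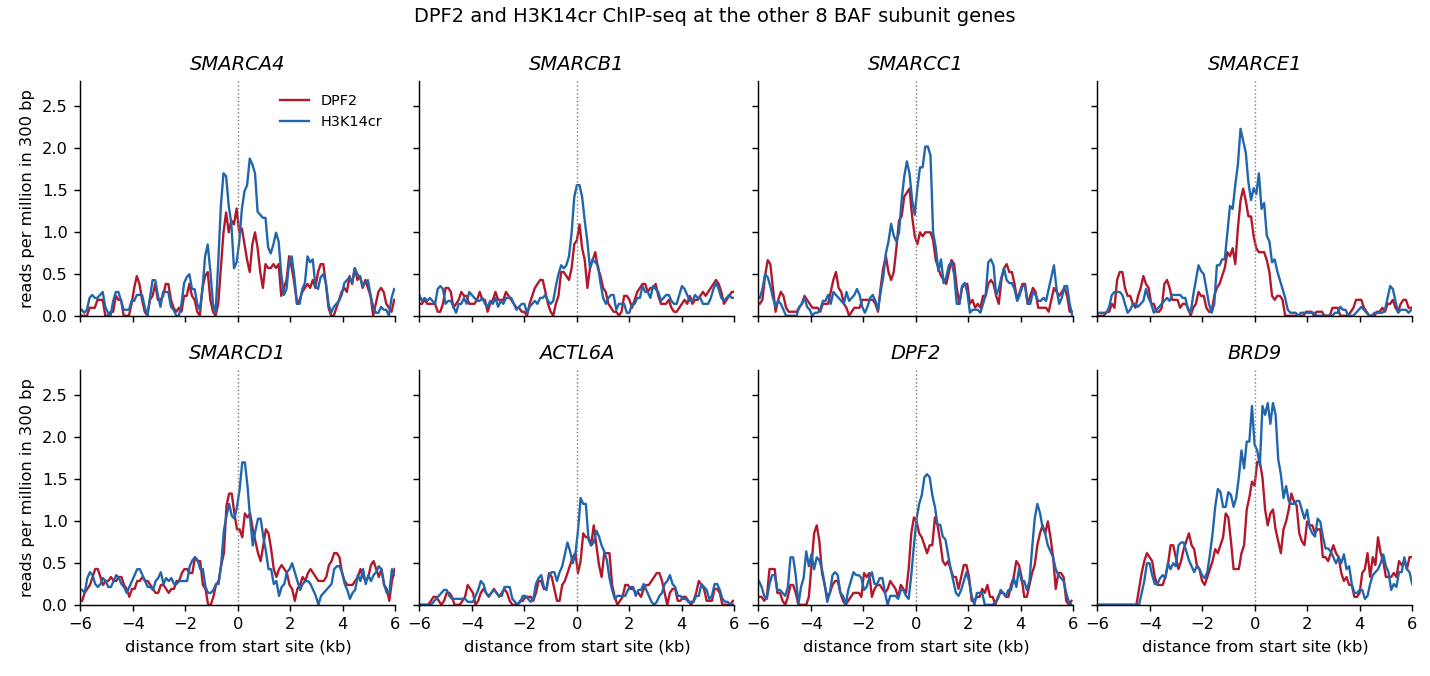
DPF2 (red) and H3K14cr (blue) CPM in a running 300 bp (vertical axis), pooled over the libraries of each antibody, against distance from the start site in kb along the gene, for the other 8 genes on a shared scale. Highest 300 bp values are 20 to 36 DPF2 reads a gene, so single summits are uncertain; H3K14cr is the higher curve near most start sites.

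Position inside the window was not a stated criterion of the choice. The levels near the start site were, so a summit near it is partly given by that choice. No share over other windows was computed, and nothing is inferred from the counts that follow. The highest 300 bp of pooled DPF2 signal lay within 1000 bp of the start site in 9 of 10 genes, all but ARID1A, at a median distance of 221.5 bp over the 10 genes. For pooled H3K14cr the median distance was 391 bp. The DPF2 summit was downstream of the start in 4 genes and the H3K14cr summit in 6. DPF2 summits of the 2 libraries lay within 300 bp of each other in 7 genes and H3K14cr summits in 6. At SMARCD2, ARID1A and SMARCE1 they fell on the same 100 bp in both DPF2 libraries. In the other 8 genes a summit rested on 20 to 36 pooled DPF2 reads, and at SMARCD1 the libraries placed it 1000 bp apart.

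H3K14cr at the DPF2 summit, relative to its own flanks, also differed between genes. It was at 0.800 times its flanks at SMARCD2 and 0.691 at SMARCA4, against 1.21 to 4.745 times in the other 8. SMARCA4 had 18 H3K14cr reads under a DPF2 summit of 27 reads, against 26.05 per 300 bp in the flanks, counts too low to show a difference firmly. The same holds for SMARCD2, with 24 H3K14cr reads under its DPF2 summit. At SMARCB1 the summits of both antibodies coincided within 100 bp, with 44 H3K14cr reads at the DPF2 summit against 9.27 per 300 bp in the flanks.

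Regional read level differed between the genes. The 1 Mb around a gene, its window left out, stood at 0.8525 times (ACTL6A) to 3.01 times (the DPF2 gene) the genome median for DPF2, and at 0.912 to 3.455 times for H3K14cr. Relative to that region, the DPF2 level of the window was 5.43 times at SMARCD2 and 6.87 times at ARID1A, and 0.995 to 2.13 times in the other 8 genes. For H3K14cr the values were 2.18 and 2.79 times, and 1.06 to 2.455 times. The part of the regional level in the window levels was not tested. At the 6 kb limit the outermost tiles inside had a median of 0.699 CPM for DPF2 and the first tiles outside 0.711 CPM; for H3K14cr the medians were 0.7965 and 0.584 CPM.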

How the data were processed

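The authors deposited, for each of the 4 ChIP-seq libraries, a signal track in 100 bp bins scaled to 10000000 reads, per the file headers and values; Bowtie2 and the builds hg19 and mm9 are named in the submitters' processing notes, with no version. The positions run past the end of chromosome 1 in GRCh38 and were read as hg19. No source used here gives other alignment filters. Dividing the deposited signal by the value of 1 read gave whole reads (tolerance 0.005) for 99.999965% to 100% of bins. Read totals by library were 7787444 and 13317496 for DPF2, and 10880366 and 17369133 for H3K14cr.

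Reads were summed in 1 kb tiles. Enrichment, ratios, intervals and summits were computed with Python 3.11.15, numpy 2.4.6, pandas 2.3.3 and scipy 1.17.1, and figures with matplotlib 3.10.9. A one-sided Poisson test was adjusted by Benjamini-Hochberg over all tiles with a read. A call of DPF2 over H3K14cr needed an enriched tile with a ratio of at least 2 and 20 reads or more. edgeR 4.0.16 (R 4.3.3) was run on the recovered counts of enriched tiles, as an alternative added after seeing the data. The scripts were checked on simulated data. The labels do not state whether same-antibody libraries derive from distinct cultures.

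The genes and lists were chosen with earlier results of these data known. The text names all 10 genes, and other genes only as neighbours in the gene table. Start sites came with the gene list; the strands of SMARCC1 and ACTL6A are general knowledge. Promoter letters are from RefSeq, GRCh38.p14, and no coordinates were converted between builds. Alternatives were tile size and grid, window width, background, threshold, scaling and leaving out each library.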

Additional observations from a re-analysis of the deposited data

How the results depend on the processing

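The ratios of SMARCD2 and ARID1A were above 1 in 44 of 44 alternative values, with 15 moved beyond their counting interval. Of 176 alternative ratios of the other 8 genes, 157 stayed within the interval; 18 lay above 1, where all their reported ratios lie below it, and 6 of these 18 belong to genes whose reported interval excluded 1. With median-of-ratios factors the window ratio was above 1 at 6 of the 8 genes, 1.295 at SMARCD1, 1.149 at SMARCB1, 1.114 at SMARCC1, 1.109 at the DPF2 gene, 1.105 at ACTL6A and 1.018 at BRD9, and the median over the 10 windows 1.111, because that scaling divides every ratio by 0.763. At the highest DPF2 tile, 500 bp tiles gave 1.102 at SMARCD1 and 1.095 at the DPF2 gene, and 1.061 was found at SMARCD1 without DPF2 replicate 1; the cause was not tested. A fold of at least 5 left 3 genes with a DPF2-enriched tile and 2 with an H3K14cr-enriched tile. The chromosome mean alone gave 10 genes for DPF2 and 10 for H3K14cr. Tiles of 500 bp gave 4 and 9 genes, tiles of 2 kb 5 and 8, and the surrounding 10 kb as background 4 and 6. Windows of 3 kb to each side left 1 gene with a tile at least 2 times higher in DPF2, since both ARID1A tiles so called lie outside them; a tile of ARID1A inside, at a ratio of 2.82, was not called enriched. Leaving out each library in turn gave 6 to 9 genes with a DPF2-enriched tile and 9 to 10 with an H3K14cr-enriched tile. A tile was called enriched only if all libraries in use passed, so leaving a library out could only keep or raise these counts. They therefore do not show that the calls are stable. The count with a tile at least 2 times higher in DPF2 was 2 to 2. The median ratio ran from 0.8097 to 0.871 in windows and from 0.7251 to 0.8198 at the highest tiles, where SMARCD1 alone ran from 0.6645 to 1.061. Of 30 alternative summit distances 8 moved, all outside SMARCD2 and ARID1A.

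edgeR's quasi-likelihood test over 12490 enriched tiles called 495 higher in DPF2 (3.96%) and 3653 higher in H3K14cr (29.2%) at an adjusted p of at most 0.05. With the replicate block it called 504 and 3644. Both fits marked tiles as higher in DPF2 at 2 of the 10 genes, SMARCD2 and ARID1A. Of the 16 tested tiles of the 10 genes, 6 were higher in H3K14cr with the block, which added SMARCC1, and 5 without it. These calls take libraries as replicates where each antibody is counted as 1 sample, on a ratio that the choice of the genes used. They support nothing about the genes. Deviations of same-numbered libraries had a correlation of -0.0207, so the numbers were not taken as pairs. Depth limits the 8 weaker genes, whose summits rest on 20 to 36 DPF2 reads.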
